A study of Mus musculus with 150 samples.

Results

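The 435kdel is a CRISPR deletion on mouse chromosome 16 whose replication timing was profiled in embryonic stem cells (mESC). Its profiles were chosen by genotype label, which gave 4 of the 150 samples of the series. These form 2 of the 75 pairs of early and late S-phase fractions. One profile comes from non-hybrid cells labelled homozygous for a deletion of 436361 bp (chromosome 16, 47900059 to 48336419, mm10). The other comes from clone B8 of cas/129 hybrid cells, labelled with a deletion of 436359 bp (47900079 to 48336437), and is split into a svim and a cast allele column. The cells were pulsed with BrdU and sorted, and labelled DNA of the early and late fractions was sequenced (Repli-seq).

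The non-hybrid 435kdel was set against 350kdel (47900059 to 48235964), which shares its left end, and against 100kdel (48235964 to 48336419), which shares its right end. It was also set against 2kdel, 45kdel and 45kinv, whose edits lie inside the deleted span, and against 46C, the unedited line. All of these comparisons share the 1 profile of the 435kdel. The labels give serum with LIF as the medium of 46C, and 2i with LIF as that of the hybrid cells. Clone B8 was set against 5 cas/129 clones. In 30kdel B11 and 30kdel C2 the edit lies to the right of the early domain (48665576 to 48695490), while 29kdel D8, 14kdel D11 and the inversion 24.5kinv 3 are edited inside the span that B8 lacks. Cell background and medium cannot be told apart between the 2 sets, and no test spans them. The 435kdel has 1 profile in each background, so clone and genotype cannot be told apart either. Which allele of B8 carries the edit is not labelled, but all 87 positions of the span were blank in its svim column and 0 were blank in its cast column. In the non-hybrid 435kdel, 87 of 87 were blank as well.

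Replication timing is the order in which parts of a chromosome are copied during S phase. Neighbouring replicons share a time and form domains, and early domains tend to lie in open, active chromatin while late ones tend to be compact. The deleted span holds Dppa4 (48283735 to 48294292) and Dppa2 (48310274 to 48319513), which encode DNA-binding proteins of pluripotent cells. In 46C the score crosses 0 inside this span, at 48070000, so the span held late sequence on its left and the left portion of an early domain on its right. The deletion joins the rest of that domain to the late left flank, and each side is described on its own.

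The deposited timing score is higher where replication is earlier. The mean over the early control genes Crebbp, Ranbp1 and Tfrc was above that over the late control genes Robo1, Robo2, Ncam2 and Cadm2 in 115 of 115 columns. The sources do not state a log base for the score, so every difference is given in score units and not as a fold. Read depth is unknown, so the spread between profiles sets the precision. Nothing says that clones came from separate cultures, and p-values measure only the spread between these profiles. Positions lie 5 kb apart and vary smoothly, so neighbouring windows are not independent. The 4 regions tested were the left flank (from 47000000 to the left end of the deletion), its nearest 200 kb, the remaining domain (from the right end of the deletion to 48620367) and the 500 kb to the right of it. Positions 47900059 to 48336437 were left out of every profile. Repeat libraries of the same clone or genotype show how far libraries differ. Those of 45kinv differed by 1.04 in the nearest 200 kb and by 0.19 in the remaining domain. In 7 hybrid pairs the nearest 200 kb differed by up to 0.74 on svim (median 0.24) and 1.33 on cast (0.35). The remaining domain differed by up to 1.06 on svim (0.28) and 1.49 on cast (0.47). The deletion has no repeat libraries, so its own spread is unknown.

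In the non-hybrid 435kdel, the late left flank replicated earlier near the deletion. Its nearest 200 kb averaged -0.59 in the 435kdel, against -3.13 in 46C. Among other profiles edited inside the span, 2kdel had -2.59, 45kdel had -2.45 and 45kinv had -2.38, all below the 435kdel. The 350kdel, also edited inside the span, had 0.04, above the 435kdel. The difference was 2.54 ± 0.62 from 46C (SE) and 2.04 ± 0.31 from the mean of the 4 profiles 46C, 2kdel, 45kdel and 45kinv. Over the whole left flank the mean was -2.65 in the 435kdel, against -3.24 in 46C, and the difference shrank with distance from the deletion.

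The course of this difference can be read from windows of 50 kb. In the window that ends at the deletion (47850001 to 47900000) the 435kdel scored 0.34, against -2.98 in 46C. The next windows to the left scored -0.43, -1.08, -1.21 and -1.52 in the 435kdel, against -2.98, -3.15, -3.42 and -3.58 in 46C. At 47600001 the 435kdel still stood at -2.27, against -3.68 in 46C. At 47500001 the profiles met, with -3.32 in the 435kdel and -3.38 in 46C, and further left the window differences lay between -0.69 and -0.12. The 5 windows nearest the deletion, 47650001 to 47900000, were also the 5 largest absolute differences between the 435kdel and 46C among 1893 windows of the chromosome. The difference in the nearest one was 3.32, whereas the largest over 2 Mb from the deletion was 1.98.

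**Figure D1:**
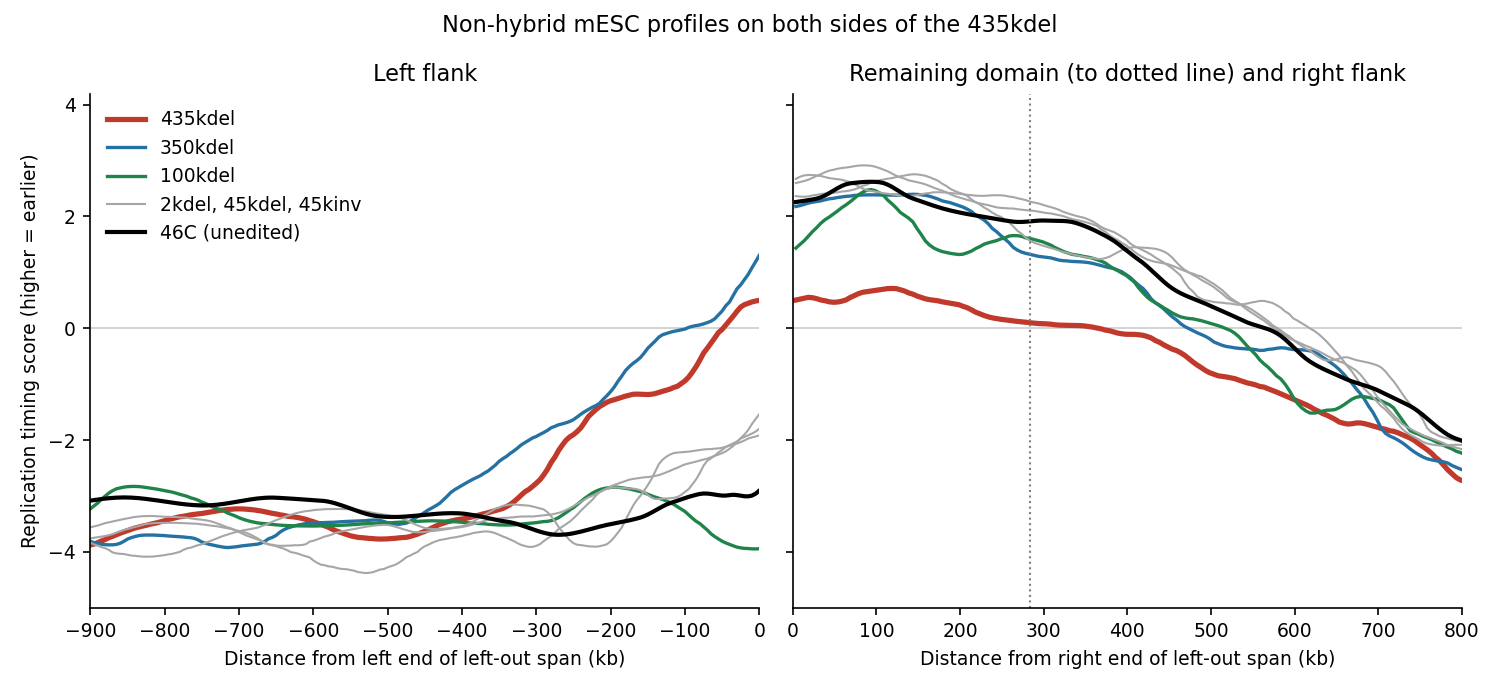
Timing score (y axis, score units, higher is earlier) of non-hybrid profiles by distance in kb from the ends of the left-out span, with 1 line per profile. The 435kdel and 350kdel rise towards the deletion in the left flank while the other profiles stay low, and in the remaining domain the 435kdel averages 0.46, against 2.26 in 46C.

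The 4 RefSeq entries listed in the left flank are the pseudogenes Gm6912, Gm18169 and Gm6914 and the small nuclear RNA gene Gm24651. Gm6914 (47620481 to 47621744) is the nearest to the deletion and scored -2.35 in the 435kdel, against -3.69 in 46C. Against the 4 profiles edited within the span or unedited it was higher by 1.17 ± 0.26 (limma adjusted p = 0.0209). A gene score is the mean of positions that the windows also hold, so it adds no separate support.

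Whether these differences pass a test depended on which profiles gave the spread. In the fit of all non-hybrid profiles, the spread came from the 2 clones each of 680kdel and 245kdel, and a lone profile was assumed to vary like them. Both of these lack most of the remaining domain, so for the domain as a whole the spread was the prior of limma alone. In that fit limma called 0 of 1893 windows against 46C (0%), with 62 windows at an unadjusted p under 0.05. The adjusted p was 0.999 for the nearest 200 kb and 0.999 for the remaining domain. Without 245kdel 25 or without 245kdel 28 the same differences came to pass in limma. The spread then rested on the 2 clones of 680kdel alone, or on the prior in the domain, so little can be drawn from it. The 2 clones of 245kdel had -2.92 and -4.00 in the nearest 200 kb.

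Against 46C, 2kdel, 45kdel and 45kinv taken as 1 group, limma called 60 of 1891 windows (3.17%), 30 higher and 30 lower in the 435kdel. The nearest 200 kb passed with adjusted p = 0.000611. The whole left flank differed by 0.68 ± 0.28 and did not pass (adjusted p = 0.215). Of the 18 left flank windows 6 were called, all higher, in a run from 47600001 to 47900000 that touched the deletion. Of the 6 windows of the remaining domain 6 were called, all lower. The last of them, 48600001 to 48650000, runs past the end of the domain at 48620367 into the right flank. The exact permutation test of 1 profile against 4 cannot give a p below 0.2, and it gave 0.2 for the nearest 200 kb and for the remaining domain. Among the 60 calls 41 lay over 2 Mb from the deletion, so most calls of this profile lay elsewhere on the chromosome. The called length was 1650 kb without 45kdel and 3000 kb with all 4 profiles. With any 1 of the 4 left out, the adjusted p was at most 0.0115 for the nearest 200 kb and at most 0.00932 for the remaining domain.

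The left flank was untouched in 8 non-hybrid profiles, with 100kdel, 345kdel, 245kdel 25 and 245kdel 28 added to those 4. In its nearest 200 kb the 435kdel averaged -0.59, above all 8 of these, which ran from -4.00 to -2.38 with a median of -2.94. Its difference from their mean was 2.38 (exact permutation p = 0.111, two-sided, the smallest that 1 against 8 allows).

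The 350kdel ends at the same left base and keeps Dppa2 and Dppa4, and its left flank also scored above that of 46C. The nearest 200 kb averaged -0.59 in the 435kdel and 0.04 in the 350kdel. In the window beside the deletion the 435kdel scored 0.34 and the 350kdel 0.84. Going left, the next 4 windows scored -0.43, -1.08, -1.21 and -1.52 in the 435kdel, where the 350kdel had 0.12, -0.11, -0.68 and -1.38. The 350kdel was thus the higher of the pair in every one of these 5 windows, and it was still higher at 47550001, with -3.01 in the 435kdel and -2.12 in the 350kdel. In the 6 windows from 47000001 to 47300000 the 435kdel was the higher one, by 0.11 to 0.64. The difference of the 435kdel from the 350kdel was -0.63 over the nearest 200 kb. With the spread of the 4 profiles, a fit chosen after the values were seen, its 95% interval ran from -1.47 to 0.20 and the adjusted p was 0.579 (limma). Over the whole left flank the difference was -0.22, with an interval from -0.96 to 0.52. These intervals include 0 and do not show that the 2 deletions have the same left flank.

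The 680kdel shares the left end as well but also lacks most of the remaining domain. The nearest 200 kb averaged -0.59 in the 435kdel, where 680kdel clone 13 had -2.05 and clone 16 had -2.53. The window beside the deletion scored 0.34 in the 435kdel, where these clones had -1.63 and -2.01. The 435kdel was the highest of the 3 in both. In the nearest 200 kb clone 16 lay within the range of 46C, 2kdel, 45kdel and 45kinv (-3.13 to -2.38), and clone 13 lay above it. In the 350kinv, which turns round the segment that the 350kdel removes, the value was -3.11. These values are given side by side without a test.

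**Figure D2:**
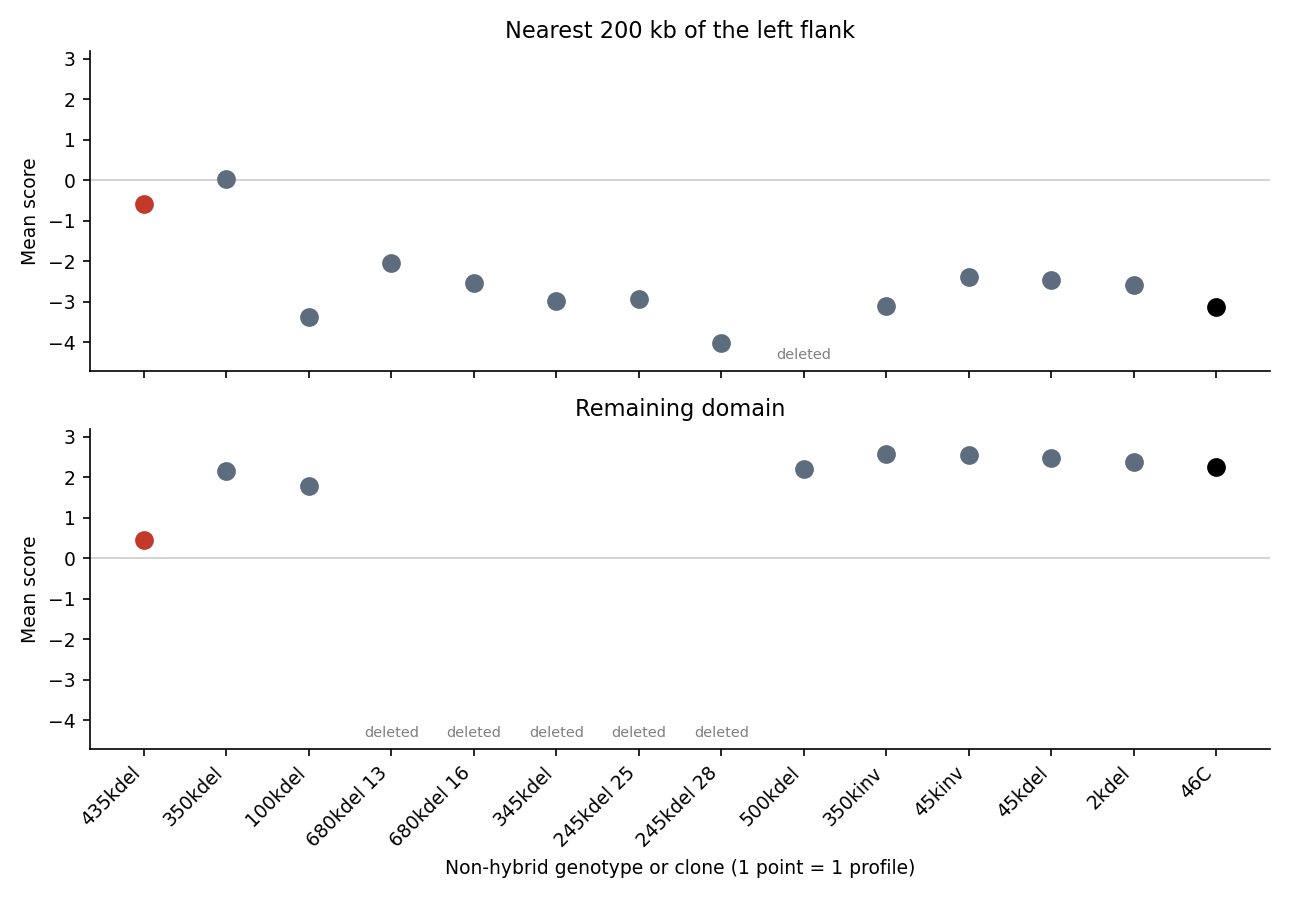
Mean timing score (y axis, score units) of every non-hybrid genotype or clone, 1 point per profile with both 45kinv libraries averaged, for the nearest 200 kb of the left flank (top) and the remaining domain (bottom). The 435kdel (-0.59 and 0.46) stands apart from 46C (-3.13 and 2.26) in both, while the 350kdel (0.04 and 2.15) stands apart from 46C in the top panel and 0.11 below it in the bottom one.

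The remaining domain went the other way and replicated later in the non-hybrid 435kdel. Its mean was 0.46 in the 435kdel, against 2.26 in 46C, 2.39 in 2kdel, 2.47 in 45kdel and 2.55 in 45kinv. The 435kdel lay below every one of them. The difference was -1.80 ± 0.50 from 46C and -1.96 ± 0.28 from the mean of the 4 profiles, for which limma gave adjusted p = 0.000554. The drop was even along the domain: the 6 windows from 48350001 on scored 0.50, 0.65, 0.62, 0.43, 0.19 and 0.09 in the 435kdel, against 2.41, 2.61, 2.35, 2.10, 1.96 and 1.92 in 46C. Unlike the left flank, the window differences did not fade with distance from the deletion, and lay between -2.07 and -1.85 against the 4 profiles.

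Morc1 (48431237 to 48630905), whose product silences transposons in mouse male germ cells, covers most of this region. It scored 0.40 in the 435kdel, against 2.15 in 46C. Morc1 differed by -1.92 ± 0.25 from the 4 profiles (limma adjusted p = 0.00129, where 69 of 1510 gene bodies or 4.57% were called).

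Both smaller deletions scored higher in the domain. The 435kdel had 0.46 there, where the 350kdel had 2.15 and the 100kdel had 1.80. The 500kdel, labelled heterozygous, and the 350kinv both end at the same base as the 350kdel and had a mean of 2.20 and 2.57. By window, the 350kdel had 2.30, 2.38, 2.39, 2.22, 1.76 and 1.31 and the 100kdel had 1.95, 2.39, 1.89, 1.36, 1.56 and 1.57, all above the 435kdel at the same place. All 7 profiles that are unedited or edited only up to that base were above the 435kdel, which differed from their mean by -1.91 (exact permutation p = 0.125, two-sided, the smallest that 1 against 7 allows).

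In the remaining domain the difference was -1.69 from the 350kdel and -1.34 from the 100kdel. In the fit of all profiles limma called 0 of 1892 windows against the 350kdel (0%, 55 at an unadjusted p under 0.05) and 0 of 1891 against the 100kdel (0%, 127 unadjusted). With the spread of the 4 profiles, which was chosen after the values were seen, the difference from the 350kdel had a 95% interval from -2.43 to -0.95 and adjusted p = 0.0222. That fit called 16 of 1892 windows (0.846%), of which 5 formed a run from 48350001 to 48600000 beside the deletion and 11 lay over 2 Mb away. Without 45kdel these calls were lost, and the adjusted p of the domain was 0.0742. With all 4 profiles in the fit, Morc1 differed from the 350kdel by -1.63 ± 0.31 (adjusted p = 0.0288, with 0.728% of gene bodies called).

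In the same fit the difference from the 100kdel in the domain was -1.34 with adjusted p = 0.0292, or 0.0543 without 45kdel. It called 122 of 1891 windows (6.45%), of which 104 lay over 2 Mb away. The nearest 200 kb of the left flank differed from the 100kdel by 2.78 ± 0.40 (adjusted p = 0.000357), with -0.59 in the 435kdel and -3.38 in the 100kdel. Among gene bodies 3.64% were called, and Morc1 differed by -1.29 (adjusted p = 0.0411).

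The 350kdel and the 100kdel together remove the same span as the 435kdel, so their changes from 46C can be added. In the nearest 200 kb the 435kdel departed from that sum by -0.39 ± 0.88. In the remaining domain it departed from the sum by -1.23 ± 0.71, and limma called 0 of 1891 windows (0%, 74 at an unadjusted p under 0.05). With the level and spread of the 4 profiles the departure in the domain was -1.07 with an interval from -2.02 to -0.13 and adjusted p = 0.224. That fit called 55 windows (2.91%), 0 of them in the remaining domain or the left flank. The domain score of the 435kdel was thus below that sum in both fits without passing the test.

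**Figure D3:**
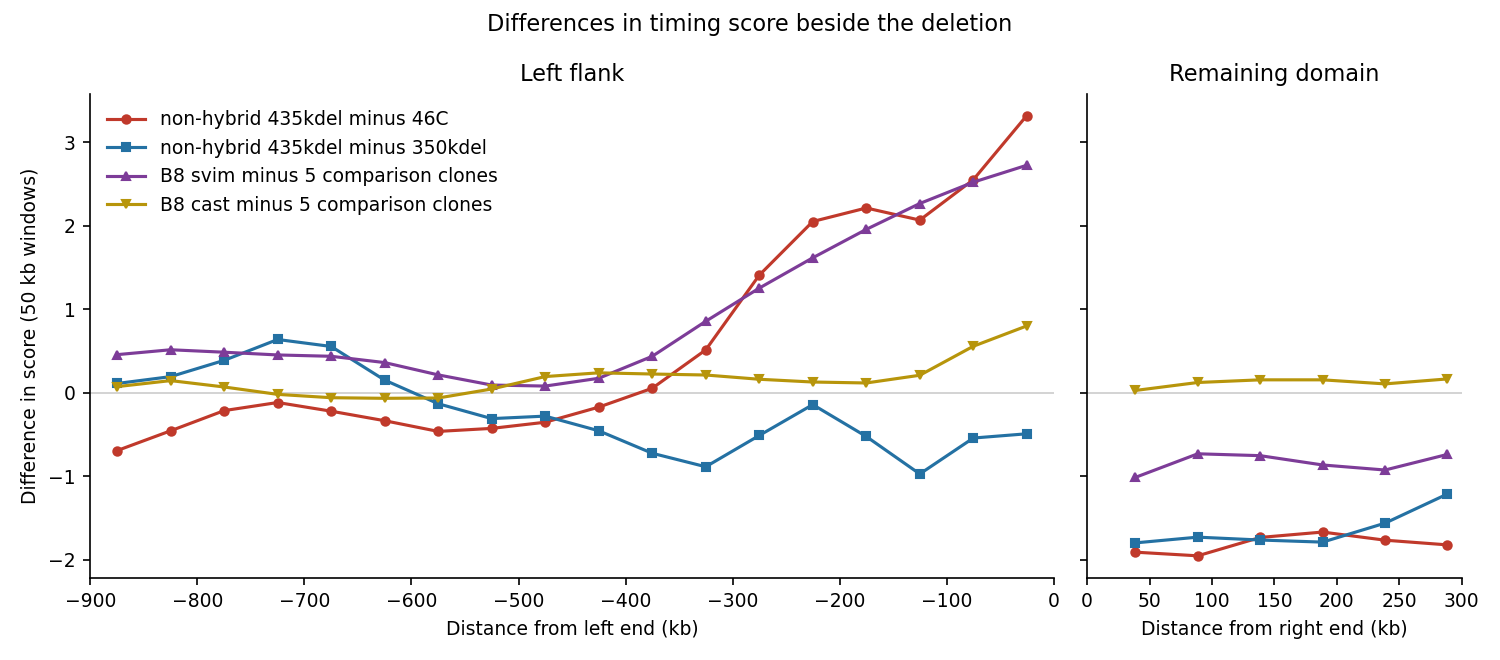
Difference in timing score (y axis, score units) in 50 kb windows by distance in kb from the ends of the left-out span, for 4 comparisons of 435kdel profiles. The lines for the non-hybrid 435kdel minus 46C and for B8 svim minus its 5 comparison clones climb together to 3.32 and 2.73 beside the deletion, and the line against the 350kdel is below 0 there.

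The lower scores of the non-hybrid 435kdel went on into the right flank. The 500 kb after the domain averaged -0.94 in the 435kdel, against 0.17 in 46C. The difference from the 4 profiles was -1.20 ± 0.28 (limma adjusted p = 0.0157, or 0.0563 without 45kdel), and called windows ran without a gap from 48350001 to 48950000. At 48700001 the 435kdel scored -0.08, against 1.36 to 1.64 in the 4 profiles, and at 48900001 it scored -1.22, against -0.25 to 0.27. The 435kdel lay outside their range at both places. The 350kdel and the 100kdel had -0.27 and -0.30 in this region, above the 435kdel but below 46C.

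Of 10 genes listed to the right of the domain 5 fell against the 4 profiles and 0 rose, with a median difference of -1.02, where 69 of all 1510 gene bodies were called (4.57%), 40 higher and 29 lower. They were the nearest 5: Trat1, an adaptor of the T cell receptor, the resistin-like genes Retnlb, Retnla and Retnlg, which encode small secreted proteins, and Dzip3, a ubiquitin ligase. Trat1, starting 110.4 kb beyond the domain, scored -0.26 in the 435kdel, against 0.95 in 46C, and differed by -1.44 ± 0.25 from the 4 profiles (limma adjusted p = 0.00739). Dzip3, starting 303.9 kb beyond it, differed by -1.08 (adjusted p = 0.0368). Cip2a, an inhibitor of the phosphatase PP2A, came next with -0.95 and did not pass (adjusted p = 0.0504). Myh15, a myosin heavy chain gene, had -0.44, and the more distant Ift57, Cd47 and Bbx had -0.22, 0.06 and -0.49, all with adjusted p above 0.05.

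Nectin3, a cell adhesion gene further to the left (46387665 to 46498535), was lower in the 435kdel. It scored -2.98 in the 435kdel, against -2.06 in 46C, and differed by -1.01 from the 4 profiles (limma adjusted p = 0.0405). The 680kdel clones had -3.12 and -3.00 at Nectin3 and the 350kdel had -2.08. The 100kdel stood at -0.37, so the score of this gene varied among lines whose edits lie far from it.

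The left border of early replication was read as the first of 10 successive positions below 0, going left from the domain over the positions a profile has. The left-out span was kept in for this reading. The 435kdel and B8 svim have no positions there to count, so their lengths above 0 are shorter partly by design. In the 435kdel it lay at 47850000, which leaves 50 kb of sequence above 0 between the border and the domain. In the 350kdel it lay at 47800000, with 200 kb in between, and in 46C at 48070000, with 265 kb. The border of B8 lay at 47815000 on svim, 85 kb from the domain, and at 47950000 on cast, 385 kb from it. On svim the 5 comparison clones had 165 to 365 kb. With the span left out, the border lay at 47900000, beside the deletion, in 46C and on svim in all 5 clones. The cas/129 columns differ in their medians, so a score of 0 is not the same level in each.

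In the hybrid clone B8 the left flank near the deletion was earlier on svim than on cast. On svim B8 averaged -0.13 in the nearest 200 kb. The 5 comparison clones had -2.68 (30kdel B11), -2.30 (30kdel C2), -2.71 (29kdel D8), -3.33 (14kdel D11) and -1.45 (24.5kinv 3) on svim, all below B8. The difference from their mean was 2.37 ± 0.64. On cast B8 averaged -1.68, against -3.16 to -0.95 in the comparison clones, and differed by 0.42 ± 0.72.

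On svim the 50 kb window beside the deletion scored 0.61 in B8, and the next ones to the left scored 0.09, -0.39, -0.81 and -1.19. The means of the comparison clones there were lower by 2.73, 2.52, 2.27, 1.96 and 1.62. These 5 windows were again the 5 largest absolute differences, here among 1890 windows, and the same interval, 47650001 to 47900000, held the 5 largest in the non-hybrid 435kdel minus 46C. The largest svim difference over 2 Mb from the deletion was 1.52. On cast 0 of the 5 largest differences lay in this interval.

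By limma 0 of 1890 windows were called on svim (0%, 11 at an unadjusted p under 0.05) and 0 of 1885 on cast (0%, 2 unadjusted), with adjusted p = 1.0 for the nearest 200 kb on svim. Without 24.5kinv 3, the highest of the 5 there at -1.45, that region had adjusted p = 0.000389 by limma. In that fit 200 kb of windows were called on svim. With only the 2 clones of 30kdel that region had adjusted p = 0.00511. The first of these fits drops the clone whose score is nearest to that of B8, and the other rests on 30kdel alone. Little can therefore be drawn from either. The whole svim column of 24.5kinv 3 also had the highest median of the 5 (-0.44). After rescaling on positions far from edits, the 5 ran from -2.81 to -2.48 in the nearest 200 kb, against -0.58 in B8. In limma that region did not pass after this rescaling either.

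**Figure D4:**
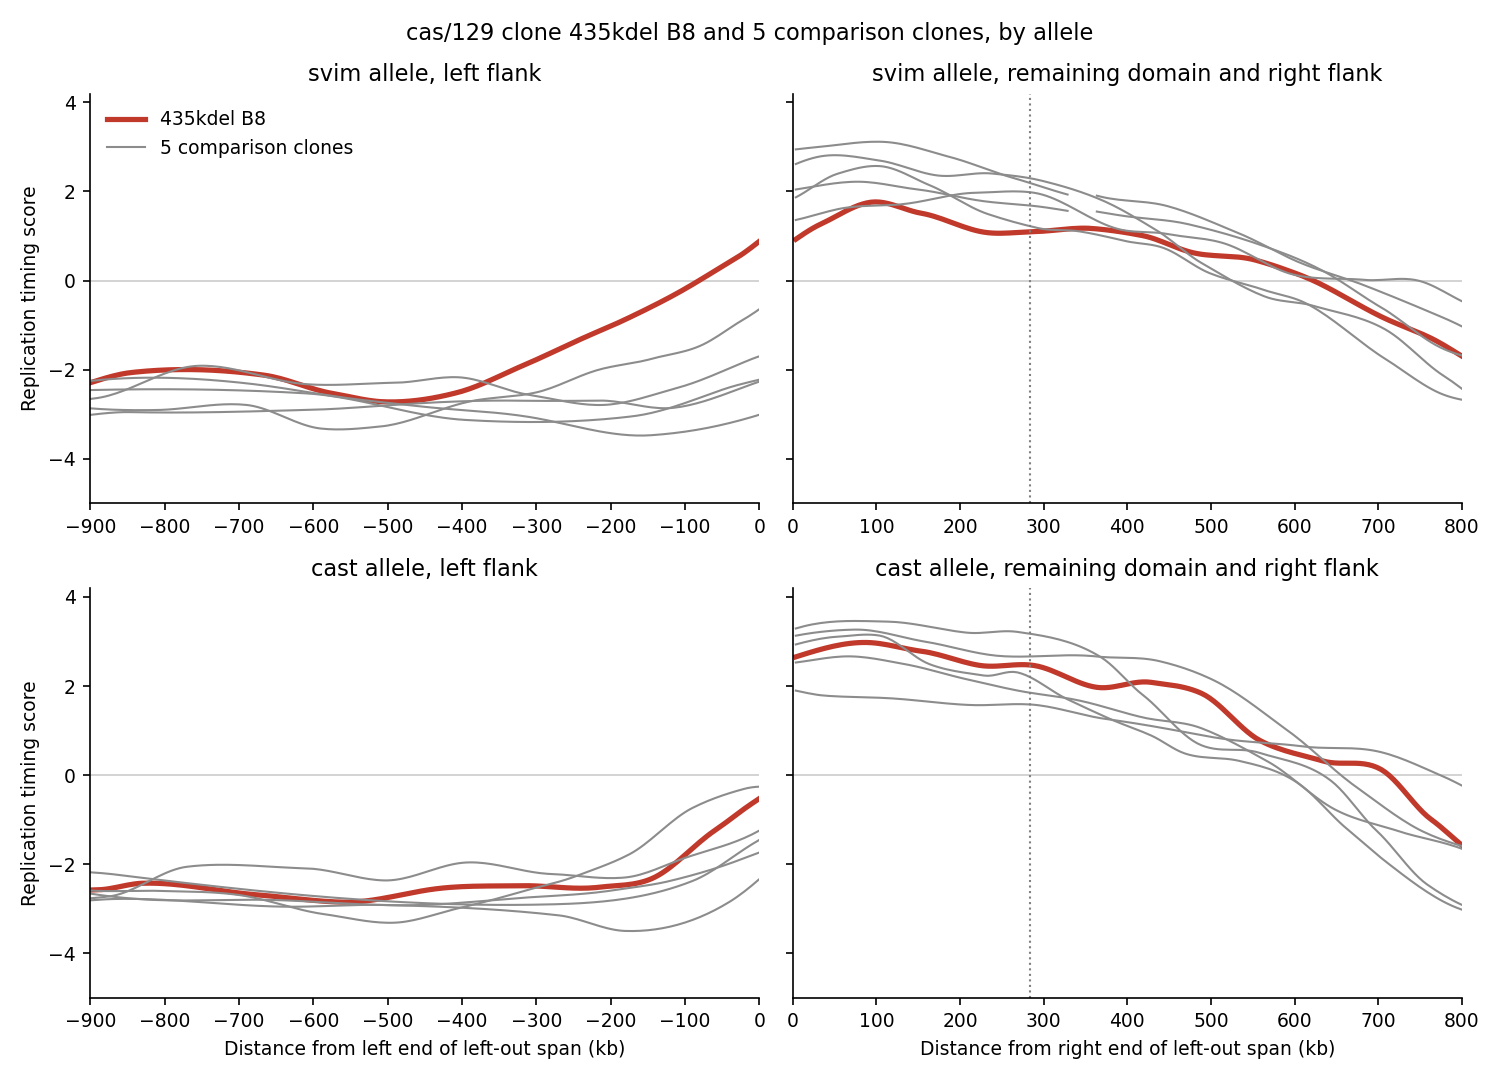
Timing score (y axis, score units) of B8 and the 5 comparison clones by distance in kb from the ends of the left-out span, on svim (top) and cast (bottom), 1 line per clone. B8 svim rises to 0.61 in the last 50 kb window of the left flank, above all 5 clones, whereas B8 cast lies within their range there.

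Taking svim minus cast within each clone removes what both alleles of a library share. In the nearest 200 kb this value was 1.55 in B8, against -0.45 (30kdel B11), -0.45 (30kdel C2), -0.40 (29kdel D8), -0.17 (14kdel D11) and -0.50 (24.5kinv 3). B8 was the only one of the 6 with an earlier svim allele there. The difference was 1.95 ± 0.32 (limma adjusted p = 0.0454), and 2 of 1885 windows were called (0.106%), both in the left flank. Without 30kdel B11, 30kdel C2, 29kdel D8 or 14kdel D11 the adjusted p was 0.181, 0.172, 0.117 and 0.0759, with differences from 1.93 to 2.00. Leaving out any 1 of these 4 clones therefore ended the call, while without 24.5kinv 3 it was kept (adjusted p = 0.0418).

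The left flank was untouched in 37 cas/129 clones, all edited at 48190129 or further right, and some of them share a genotype. In the nearest 200 kb on svim, B8 at -0.13 lay above all 37, which ran from -3.78 to -1.45 with a median of -2.77. For svim minus cast, B8 at 1.55 again lay above all 37, which ran from -1.06 to 0.58 with a median of -0.45. Both gave an exact permutation p = 0.0263, two-sided and the smallest that 1 against 37 allows, or 0.127 after adjustment over the 29 permutation tests computed. On cast B8 at -1.68 was above 34 of 37 clones (p = 0.237, exact permutation test).

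The whole left flank averaged -1.71 on svim in B8, against a median of -2.84 in the 37 clones (exact permutation p = 0.0263). Its difference from their mean was 1.15, with p = 0.127 after adjustment over the 29 permutation tests. After rescaling it was 0.66 (exact permutation p = 0.0789).

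**Figure D5:**
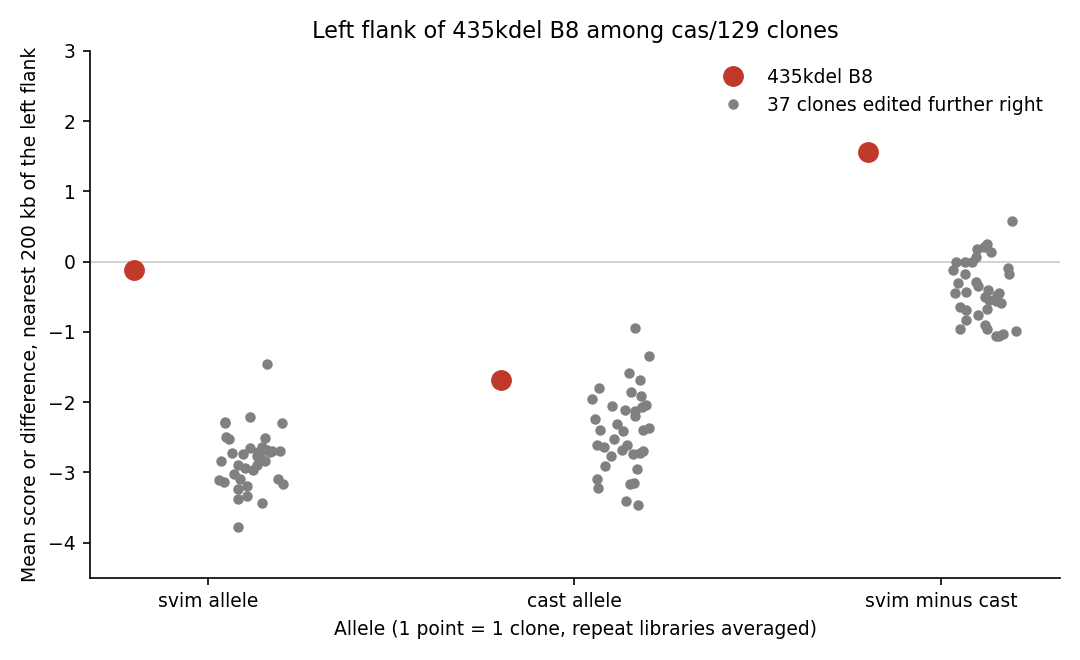
Mean timing score of the nearest 200 kb of the left flank on svim and on cast, and the difference svim minus cast (y axis, score units), with 1 point per clone. B8 (large points) lies above all 37 clones on svim and for svim minus cast, and within them on cast.

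The remaining domain was later on svim than on cast in B8. It averaged 1.36 on svim and 2.72 on cast in B8, a difference of -1.36. The 5 comparison clones had svim minus cast between -0.79 and 0.08, so B8 lay below all 5. Of the 18 other cas/129 clones whose edits all lie outside the domain, 4 were lower than B8 for svim minus cast and 5 were lower on svim. Their svim minus cast ran from -1.69 to 0.44 with a median of -0.83, against -1.36 in B8. Those below B8 were 145k.30kdel E12 (-1.69), 4kdel G4 (-1.51), 145kdel G5 (-1.38) and 435kinv C5 (-1.36). On svim B8 had 1.36, and the 18 clones ran from 0.44 to 2.83 with a median of 1.65. Along the domain B8 scored 1.34, 1.72, 1.58, 1.30, 1.08 and 1.10 on svim from 48350001 on, while its cast allele scored 2.86, 2.96, 2.83, 2.61, 2.46 and 2.43. B8 svim was below all 5 comparison clones in each of these windows except the one at 48400001, where the lowest clone had 1.68. Against their mean B8 differed by -0.98 ± 0.39 for svim minus cast (adjusted p = 0.995), by -0.87 ± 0.57 on svim and by 0.11 ± 0.65 on cast, and none of these passed in limma. The exact permutation p was 0.167 for svim minus cast, the smallest that 1 against 5 allows. On svim B8 had 1.36 and the 5 clones had 1.77 to 2.83, all above it. Repeat libraries of the same hybrid clone differed on svim by up to 1.06 in the domain, with a median of 0.28. The svim difference of -0.87 is thus no larger than the widest of these repeat gaps. After rescaling on positions far from edits B8 had 0.91 and the 5 ran from 0.69 to 3.04, so 1 of them lay below it.

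The domain of B8 averaged 1.36 on svim, and the non-hybrid 435kdel had 0.46. The sizes -0.87 and -1.80 come from separate backgrounds and media, and from columns scaled in different ways. Their difference was not tested. At Morc1 B8 had 1.33 on svim, against 1.86 to 2.69 in the comparison clones, and 2.64 on cast, against 1.63 to 3.29. The right flank of B8 on svim averaged 0.20, inside the range of -0.32 to 0.81 of the 5 clones. On svim limma called 0 of 1509 gene bodies (0%, 3 at an unadjusted p under 0.05), so the 10 genes to the right hold no call either, and their differences ran from -0.44 to 0.09.

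Clones that share an end with B8, or nearly so, are set beside it without a test. None of those edited from the left end on is among the 37. The inversion 435kinv C5 turns round the same span, 47900079 to 48336437, without removing it. The nearest 200 kb had -0.13 on svim in B8 and 0.01 in 435kinv C5, and svim minus cast was 1.55 in B8 and 2.37 in 435kinv C5. The remaining domain had 1.36 on svim in B8 and 1.15 in 435kinv C5, with svim minus cast at -1.36 in both. The clone 145kdel G5 (48190129 to 48336437) has the same right end and keeps the sequence to the left. The domain had 1.36 on svim in B8 and 1.05 in 145kdel G5. In the nearest 200 kb on svim, B8 had -0.13 and 145kdel G5 had -2.29, which is one of the 37 clones.

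The 680kdel 79 shares the left end and lacks most of the domain, and its cast column was the blank one, with 87 of 87 span positions empty. On the allele with the blank span, the nearest 200 kb had -0.13 in B8 and -1.25 in 680kdel 79. On the other allele B8 had -1.68 and 680kdel 79 had -2.08. The inversions labelled 680kinv (47900059 to 48581356) turn round most of the domain as well. In the nearest 200 kb svim had -0.13 in B8, 0.10 in 680kinv B10 and -0.77 in 680kinv C5, and svim minus cast was 1.55 in B8, 1.57 in 680kinv B10 and 1.46 in 680kinv C5. In 680kinv 80 the higher allele was cast, with -3.39 on svim and -0.43 on cast.

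Differences of similar size to those in the domain also occurred far from the deletion in the non-hybrid 435kdel. The 3 called windows with the largest differences over 2 Mb away were 72600001 to 72650000 and 72650001 to 72700000, with differences of -1.87 and -1.88 from the 4 profiles, and 90800001 to 90850000, with 1.58. The first pair lies inside Robo1 (72027518 to 73047491), an axon guidance receptor gene used as a late control. Robo1 scored -2.81 in the 435kdel, against -2.01 in 46C, and as a gene did not pass (adjusted p = 0.0592, limma). The other 6 control genes differed by -0.34 to 0.25 and none passed.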

How the data were processed

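The authors deposited a replication timing score per position of chromosome 16, 5 kb apart, which combines the early and late S-phase BrdU fractions, per the labels. Every column used has an interquartile range of 4.60, so the columns were scaled before deposit, but cas/129 columns differ in their medians (-2.17 to -0.29). The submitters' processing notes name mm10, Bowtie2, SAMtools and bedtools; neither versions nor the smoothing are stated in them. A further 6 columns whose names fit none of the listed samples were not analysed here, nor was a chromosome 8 table.

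Repeat libraries of a clone were averaged. Windows of 50 kb with at least 50% of their positions outside the left-out span, plus 4 regions, were compared with limma 3.58.1 in R 4.3.3 (lmFit with moderated variances, two-sided, Benjamini-Hochberg, threshold 0.05). Positions of the 30kdel were left out of all cas/129 profiles. Lone profiles were assumed to vary like the others of the fit. Region means of 1 profile against others were tested by exact permutation. Genes are means over RefSeq bodies (GRCm38.p6); Hhla2 was not matched, and 1 listed control gene is not reported here. The window fits were tested on simulated data. Members, regions, gene lists and named items (fixed profiles, genes, windows beside the deletion and the 3 largest distant calls) were chosen with earlier results of these data known. Alternatives covered scaling, windows, margins, filters and left-out profiles.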

Additional observations from a re-analysis of the deposited data

Results flagged for a closer look

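The effect of B8 in the nearest 200 kb of the left flank differed between its alleles, by 1.95 on svim minus cast against the 5 comparison clones (limma adjusted p = 0.0454). Among those 5 clones, 14kdel D11 stood apart from the others in svim minus cast over the whole left flank, at 0.20, where the other clones had -0.19 to -0.12. Chance gives such a gap in about 1 group in 20. B8 had 0.69 there, and without 14kdel D11 its difference was 0.84, against 0.77 with all 5.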

How the results depend on the processing

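No paired analysis was possible because each 435kdel group holds 1 profile, so it shares fewer than 2 replicate numbers with any other group. Over the alternatives, 1036 values kept their direction and their side of the threshold or moved little, 53 moved, 15 changed sign, 13 came to pass the test and 12 no longer passed it. In the fit of all non-hybrid profiles, leaving out 245kdel 25 or 245kdel 28 made calls, while leaving out a 680kdel clone made 0. The called length over the left-out clones ran from 0 to 1500 kb against 46C, 0 to 950 kb against 350kdel, 0 to 5750 kb against 100kdel and 0 to 2150 kb for the departure from the sum. The left-out clones give only the spread here, so they cannot move the differences of 2.54 (nearest 200 kb) and -1.80 (domain) from 46C, -1.69 (domain) from 350kdel, and 2.78 and -1.34 from 100kdel. With the 4 comparison profiles, leaving out 1 gave 1650 to 4450 kb, against 3000 kb with all. With their spread it gave 0 to 1200 kb (800 with all) against 350kdel and 3350 to 8150 kb (6100) against 100kdel, where the calls of the domain differences (-1.69 and -1.34, which leaving out a profile cannot move) were lost without 45kdel. For the departure from the sum it gave 1600 to 5000 kb (2750), and the nearest 200 kb turned to -0.019 with rescaling on positions far from edits and -0.051 with the 25 kb beside the deletion left out. In B8 on svim, the nearest 200 kb ran from 2.16 to 2.63 and the called length from 0 to 200 kb over the left-out clones, and 30kdel clones alone gave 2.37 with 150 kb called. On cast, the domain ran from -0.13 to 0.29, negative without 24.5kinv 3, and rescaling gave -0.057 (left flank) and -0.091 (domain). For svim minus cast, the nearest 200 kb (1.92 to 2.00 over the left-out clones) lost its call with rescaling (1.86), 25 kb windows (1.95), the 25 kb margin (1.95) and 30kdel clones alone (2.00). Its called length was 100 kb, against 0 kb with those 4 settings, 200 kb with quantile normalization, 100 kb windows or robust moderation, and 0 to 200 kb over the left-out clones. Among the 37 clones, the whole left flank of B8 on svim differed by 0.66 after rescaling (exact permutation p = 0.0789). Rescaling also turned the sign of genes that passed no test: Myh15 against 350kdel to -0.023, Dzip3 and Retnlb in the departure from the sum to -0.022 and -0.080, Dzip3, Ift57 and Retnlg in B8 svim to -0.22, -0.23 and -0.29, and Cd47, Ift57 and Morc1 in B8 cast to -0.14, -0.095 and -0.055. The cause of these shifts was not tested. The single profile of each 435kdel, and the spread of few others, limit every test, and depth is unknown.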
